A study of Arabidopsis thaliana with 12 samples.

Results

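The 6 plastid sigma factors of Arabidopsis thaliana, SIG1 to SIG6, were taken from the deposited FPKM table by their loci. All 6 were among its 32833 genes, and all 6 were among the 19110 genes that passed the filter on low values (at least 1 FPKM in at least 3 libraries). FPKM is the number of sequenced fragments per kilobase of transcript, scaled to the mapped fragments of the library. Sigma factors are nuclear-encoded proteins that are imported into the plastid, where they guide the plastid-encoded RNA polymerase (PEP) to its promoters. PEP makes most transcripts for photosynthesis in green leaves, whereas phage-type polymerases encoded in the nucleus serve other plastid promoters. SIG1 and SIG6 act at many PEP promoters, and the others are known for narrower targets: transfer RNA genes and psaJ for SIG2, psbN for SIG3, ndhF for SIG4 and the light-responsive psbD promoter for SIG5.

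Strand-specific mRNA libraries were made from leaves of 4 genotypes, 3 libraries each. They were wild type Col-0 (WT), the crwn1;4 double mutant (knock out of CRWN1 and CRWN4, proteins of the plant nuclear lamina), and triple mutants called crwn1;4 pnet2_a and crwn1;4 pnet2_b (pnet2_a plants and pnet2_b plants from here on), which carry the same knock outs plus a CRISPR allele of PNET2_A or PNET2_B, genes for proteins of the inner nuclear membrane. No treatment was given, and each RNA extraction used roughly 50 mg of tissue. The age reads 3 weeks in the sample titles and 4 weeks in the extraction protocol. The labels leave unsaid if the 3 libraries of a genotype came from separate plants. P-values therefore measure only how these libraries spread, which may be technical, and nothing says whether a triple mutant is more than 1 line.

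CRWN1 had 11.6 to 13.5 FPKM in the WT libraries and 1.46 to 2 in the 9 mutant libraries, and CRWN4 had 6.53 to 8.43 and 1.19 to 2.08 FPKM. Each library summed to between 622263 and 669711 FPKM, and the depth in reads is unknown. Leaf markers matched the tissue label, with RBCS1A at a mean of 14200 FPKM in WT, while the seed markers CRU3 and SESA3 and 2 of 3 root markers, COBL9 and RSL4, were listed at 0 in every library. The other root marker, PYK10, averaged 38.9 ± 7.24 FPKM over WT libraries and 43.8 ± 3.21 over double mutant libraries, and rose to 62.6 ± 5.58 in pnet2_b plants (log2 change 0.51 against the double mutant, limma adjusted p = 0.00219, and 0.0522 with median-ratio scaling). Composition differed between genotypes. The 4 leaf photosynthetic markers summed to 22400 to 23500 FPKM in WT libraries, 21300 to 23100 in the double mutant, 18000 to 19200 in pnet2_a and 15100 to 15900 in pnet2_b plants. All 4 fell in both triple mutants against the double mutant by limma's test with the deposited FPKM. Over all genes 9.20% were called lower in pnet2_a and 8.63% in pnet2_b plants. With quantile normalization RBCS1A and CAB2 were called in neither and LHCB2.1 not in pnet2_a plants. That normalization gives each rank the same value in all libraries, so it cannot show a change in a gene that keeps its rank. CAB2 in pnet2_b plants had a log2 change of 0.04 there, so that limit does not cover every lost call. The 4 guard cell markers summed to 30.2 to 32.0, 24.4 to 26.9, 15.9 to 19.3 and 19.1 to 22.5 FPKM in the same order. Against the double mutant 2 of the 4 fell in each triple mutant, where the same 9.20% and 8.63% of all genes did. FAMA had log2 changes of -0.02 and 0.22, not called. Against WT all 4 were called lower in both triple mutants, where 35.9% and 47.7% of all genes were called in either direction. In the double mutant, where 3% of all genes were called against WT, FAMA was called lower too (log2 change -0.49, limma adjusted p = 0.0177). That FAMA call ended in 5 of 22 alternatives, and its call in pnet2_b plants in 9. The 3 vascular markers summed to 62.8 to 81.9, 64.2 to 68.9, 45.1 to 48.4 and 58.1 to 61.0 FPKM, with SUC2 called lower in pnet2_a plants (log2 change -0.64). The 3 epidermis markers summed to 123 to 157, 112 to 122, 80.1 to 101 and 118 to 133 FPKM. Of these, 2 were called lower than in the double mutant in pnet2_a and none in pnet2_b plants, beside those same shares of all genes called lower. The 3 flower markers summed to at most 4.59 FPKM in any library. The part of these markers in the results below was not tested, and in whole leaves fewer cells of a type and less RNA per cell cannot be told apart. Against the double mutant, the typical gene, taken as the median over all genes, had a log2 change of 0.11 in pnet2_a and 0.23 in pnet2_b plants, so the sigma factor changes are also given relative to that median.

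SIG1, SIG2 and SIG6 made up most of the sigma factor transcript pool in every genotype. Their WT levels were 46.2 ± 2.73, 49.4 ± 1.36 and 46.6 ± 1.41 FPKM (mean ± SD, n = 3), and the 3 genes overlapped from library to library. SIG4 (21.3 ± 2.63 FPKM) and SIG3 (16.7 ± 0.841 FPKM) formed a middle tier in WT, without overlap between them or with the tier above. SIG5, the member known for its response to light and stress, was lowest at 4.70 ± 0.714 FPKM. SIG2 held 26.7% of the summed FPKM of the 6 genes in WT, SIG6 25.2%, SIG1 25.0%, SIG4 11.5%, SIG3 9.04% and SIG5 2.54%. Among all genes kept, SIG2 stood at percentile 90.6 in WT and SIG5 at percentile 36.1.

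The order within the upper tier differed between genotypes. SIG1 was highest in the double mutant, where its 3 libraries lay above all 3 SIG2 libraries. It was lowest of the 3 in pnet2_a plants, below every SIG6 library. In pnet2_b plants SIG6 led, above every SIG2 library, and SIG2 and SIG1 overlapped. The ratio of SIG2 to SIG6 was 1.06 ± 0.0589 in WT, 1.04 ± 0.0299 in the double mutant, 1.07 ± 0.0103 in pnet2_a and 0.879 ± 0.0163 in pnet2_b plants. Its 3 values in pnet2_b plants, 0.861 to 0.892, were below those of the other 9 libraries, and this ratio was chosen after its values were seen. SIG4 stood above SIG3 in WT and both triple mutants without overlap, and the pair overlapped in the double mutant.

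**Figure D1:**
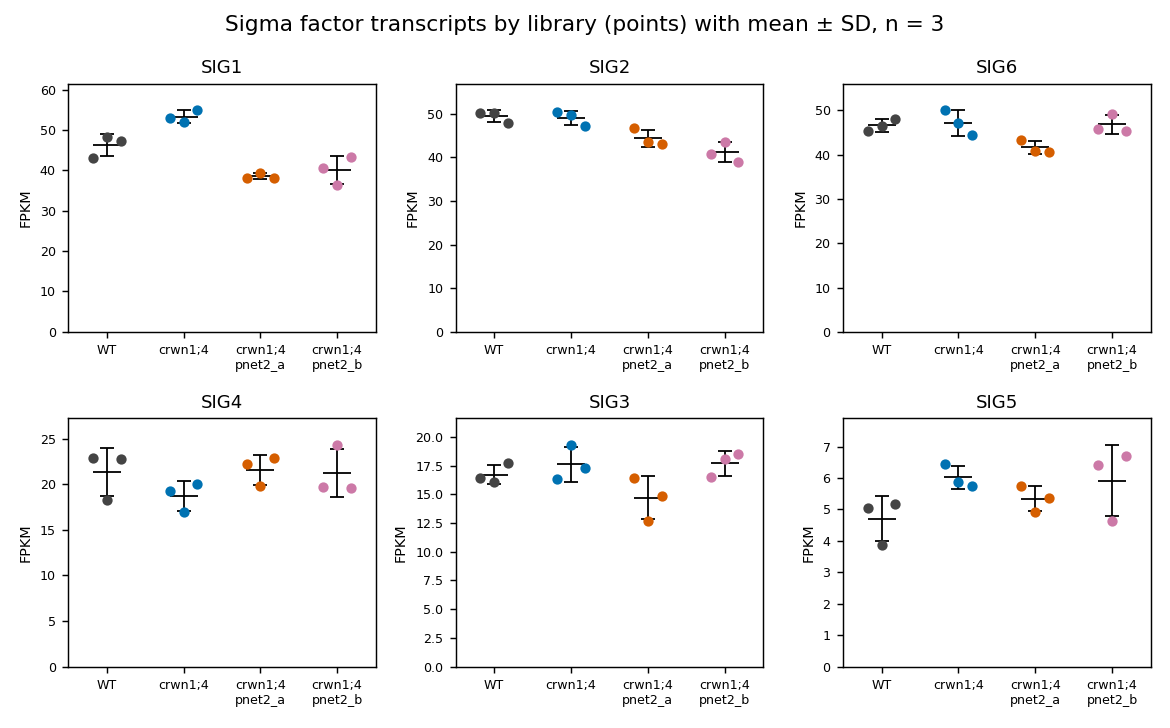
FPKM of the 6 sigma factor genes on a linear axis from 0, each point 1 library, with the mean as a horizontal bar and the SD as whiskers (n = 3 per genotype). SIG1 is highest in the double mutant (51.9 to 54.9 FPKM) and lies between 36.3 and 43.2 FPKM in the 6 triple mutant libraries.

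In TAIR10.1 the genes are spread over 4 chromosomes. SIG1 (AT1G64860) lies at chr1:24097736-24100970 on the plus strand and encodes 502 residues in 10 exons, and SIG2 (AT1G08540) at chr1:2703295-2706860 on the plus strand with 572 residues in 7 exons. SIG3 (AT3G53920) lies at chr3:19960789-19963980, SIG4 (AT5G13730) at chr5:4429095-4430901, SIG5 (AT5G24120) at chr5:8157151-8160343 and SIG6 (AT2G36990) at chr2:15537225-15540139, all on the minus strand. SIG4 encodes the shortest protein of the 6, with 419 residues. The SIG4 gene overlaps AT5G13720 on the other strand by 201 bases. AT5G13720 had 25.0 to 32.8 FPKM over the 12 libraries, and whether counting used the strand is not given, so reads in that stretch may belong to either gene.

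SIG2 was the only member with the CCAATC element, found among promoters of genes controlled by the GLK greening factors, in the 300 bases upstream of its start. It held 2 matches on the reverse strand, written GATTGG, the nearer 34 bases from the start, and 1 match to TTGAC, the core bound by WRKY factors. Of 27443 Arabidopsis promoters of that length, 12.2% held CCAATC and 50.4% TTGAC on either strand. A match is a description of letters and not evidence of binding. All 3 matches lie in the 132 bases between SIG2 and the gene upstream, which are shown because SIG2 is 1 of the 2 members that fell in a triple mutant with the deposited FPKM. The sequence is from RefSeq (TAIR10.1, plus strand, chr1:2703163-2703294), with the matches in capitals.
SIG2 upstream: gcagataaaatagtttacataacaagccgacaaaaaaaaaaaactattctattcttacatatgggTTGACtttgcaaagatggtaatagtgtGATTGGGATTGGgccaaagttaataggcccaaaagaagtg

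SIG1 has only 2 bases between it and AT1G64850, a gene on the other strand, so no stretch free of another gene could be shown for it. Its 300-base window, nearly all of it inside that gene, held 2 matches to the WRKY core. Both strands of each window were also searched for other elements of light-regulated and clock-regulated genes. The G-box, CACGTG, stood in no sigma factor window and in 7.09% of all promoters. The ACGT core, part of every G-box, stood in the windows of SIG3, with 2 matches, and SIG5, with 1, and in 49.0% of all promoters. SIG3 also held 1 match to the I-box, spelled GATAAG and found in 14.5% of promoters, and 1 to the core of the evening element of the circadian clock, spelled AATATCT and found in 11.8%. SIG4 held 1 match to the WRKY core, and SIG6 held no match to any of the 6 elements. SIG3 overlaps its upstream neighbour AT3G00910 by 1 base, and SIG6 has 106 bases before its own. The windows of SIG3 and SIG6 were thus not free of other genes either.

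Setting the double mutant beside WT asks what losing CRWN1 and CRWN4 does to the sigma factors. None of the 6 sigma factors was called by limma at a Benjamini-Hochberg adjusted p below 0.05, where 3% of all genes were called. At an unadjusted p below 0.05 there were 2, SIG1 and SIG5, and these were also the 2 whose libraries did not overlap between the genotypes, as 19.8% of all genes did not. The share of all genes past an unadjusted p of 0.05 was not counted, here or below. SIG1 had 53.0, 51.9 and 54.9 FPKM in the double mutant and 43.1, 48.2 and 47.4 in WT. Every double mutant library was above every WT library, and the log2 change was 0.20 (SE 0.0716, 95% interval 0.05 to 0.36, limma adjusted p = 0.159). SIG5 had 6.45, 5.88 and 5.74 FPKM against 5.05, 3.88 and 5.18, again without overlap (log2 change 0.31, SE 0.135, interval 0.02 to 0.60, limma adjusted p = 0.263). SIG4 had a log2 change of -0.18 with an interval of -0.41 to 0.06, and SIG2, SIG3 and SIG6 were between -0.01 and 0.07. The widest of their intervals, that of SIG3, ran from -0.14 to 0.28.

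The comparisons of the triple mutants with the double mutant address what each pnet2 allele adds. SIG1 fell in both. It had 38.2, 39.4 and 38.2 FPKM in pnet2_a and 40.7, 36.3 and 43.2 in pnet2_b plants, against 53.0, 51.9 and 54.9 in the double mutant. All 6 triple mutant libraries were below all 3 double mutant libraries. The pnet2_a plants held 72.5% of the double mutant level, a log2 change of -0.45 (SE 0.0716, 95% interval -0.61 to -0.30, limma adjusted p = 0.000255). The pnet2_b plants held 75.2%, a log2 change of -0.41 (SE 0.0716, interval -0.56 to -0.25, limma adjusted p = 0.000406). Both comparisons use the same 3 double mutant libraries. Relative to the median gene the log2 changes were -0.57 and -0.64. Over the 22 alternative settings the change stayed between -0.57 and -0.42 in pnet2_a and between -0.65 and -0.34 in pnet2_b, and SIG1 was called in each of them.

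SIG2 fell in pnet2_b plants. It had 40.8, 43.5 and 39.0 FPKM there, 46.6, 43.4 and 43.1 in pnet2_a plants, and 50.4, 49.6 and 47.1 in the double mutant. Both triple mutants lay below the double mutant without overlap, and they overlapped each other. The pnet2_b plants held 83.9% of the double mutant level (log2 change -0.25, SE 0.0634, 95% interval -0.38 to -0.11, limma adjusted p = 0.00533). In pnet2_a plants SIG2 held 90.5% (log2 change -0.14, interval -0.28 to -0.01, limma adjusted p = 0.103), which was not called. The difference between the triple mutants, -0.11 with an interval of -0.24 to 0.03, was not called either (limma adjusted p = 0.339), so a difference in SIG2 between pnet2_a and pnet2_b was not shown.

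The other 4 members were not called in either triple mutant with the deposited FPKM. SIG6 had 43.2, 40.9 and 40.6 FPKM in pnet2_a plants and 50.0, 47.1 and 44.3 in the double mutant, lower without overlap (log2 change -0.17, 95% interval -0.31 to -0.04, limma adjusted p = 0.0526). In pnet2_b plants it had 45.8, 49.2 and 45.3 FPKM, within the range of the double mutant (log2 change -0.01, interval -0.15 to 0.13). SIG3 had 16.4, 12.7 and 14.9 FPKM in pnet2_a plants and 16.3, 19.3 and 17.3 in the double mutant, and these overlapped (log2 change -0.25, interval -0.46 to -0.04, limma adjusted p = 0.0607). In pnet2_b plants its log2 change was 0.01 (interval -0.20 to 0.21). SIG4 had log2 changes of 0.20 and 0.17 with intervals of -0.04 to 0.43 and -0.07 to 0.40, and SIG5 of -0.15 and -0.03 with intervals of -0.44 to 0.14 and -0.32 to 0.25.

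The called members were thus 1 of 6 in pnet2_a and 2 of 6 in pnet2_b plants, where 32.1% and 47.5% of all genes were called. Counted downward only, 9.20% and 8.63% of all genes were called. Libraries did not overlap for 4 and 2 members, against 46.9% and 57.5% of all genes. The median log2 change of the 6 was -0.16 and -0.02, or -0.27 and -0.25 relative to the median gene.

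These calls depended on the scaling. Median-ratio scaling and quantile normalization, which set the typical gene level between libraries, both called SIG1, SIG2, SIG3 and SIG6 lower in pnet2_a and SIG1, SIG2 and SIG6 lower in pnet2_b plants. With median-ratio scaling SIG2 had log2 changes of -0.26 and -0.49, SIG6 of -0.29 and -0.25, and SIG3 of -0.36 and, not called, -0.23. SIG4 had 0.09 and -0.07, so its sign in pnet2_b plants differed from that with the deposited FPKM.

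**Figure D2:**
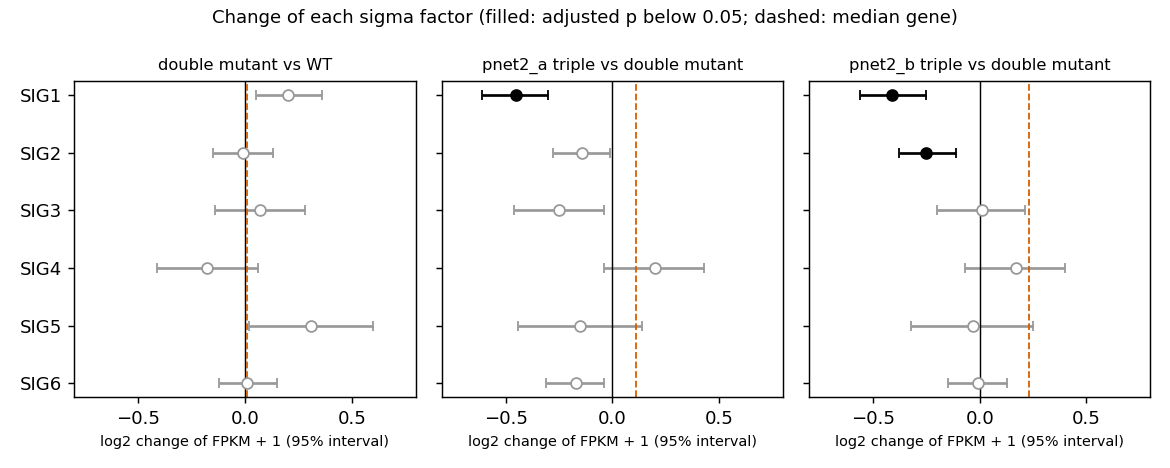
Log2 change of FPKM + 1 for each sigma factor (horizontal axis) in the double mutant against WT and in each triple mutant against the double mutant, with 95% intervals, filled where the limma adjusted p was below 0.05. The dashed line is the median change of all 19110 genes (0.01, 0.11 and 0.23), and SIG1 lies farthest left of it in both triple mutants.

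Against WT the triple mutants showed smaller differences in SIG1, whose WT level lay between those of the double and triple mutants. In pnet2_a plants SIG1 held 83.5% of the WT level, without overlap (log2 change -0.25, SE 0.0716, 95% interval -0.41 to -0.10, limma adjusted p = 0.013). It was the only member called of 6, where 35.9% of all genes were called, and 3 members did not overlap, as 46.4% of all genes did not. In pnet2_b plants SIG1 held 86.7% and 1 library, replicate 3 at 43.2 FPKM, overlapped the lowest WT library (log2 change -0.20, interval -0.36 to -0.05, limma adjusted p = 0.03). That call ended with TPM, where the log2 change was -0.14 (adjusted p = 0.112), and when any of 4 single libraries was left out: WT replicate 2 (0.0911) or 3 (0.0782), and pnet2_b replicate 1 (0.0513) or 2 (0.145). SIG2 held 83.3% of the WT level in pnet2_b plants, without overlap (log2 change -0.26, SE 0.0634, interval -0.40 to -0.12, limma adjusted p = 0.00387). These 2 members were called of 6, where 47.7% of all genes were called, and SIG2 alone did not overlap, as 54.6% of all genes did not. SIG5 was not called against WT in pnet2_b plants (log2 change 0.27, interval -0.02 to 0.56, limma adjusted p = 0.111), but without pnet2_b replicate 2, the lowest of that group at 4.63 FPKM, it was called higher (0.41, adjusted p = 0.0199).

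The triple mutants were also compared with each other. None of the 6 was called, where 2.88% of all genes were called. SIG3 and SIG6 were past an unadjusted p of 0.05 and did not overlap, as 30.4% of all genes did not. SIG3 had 16.5, 18.1 and 18.5 FPKM in pnet2_b against 16.4, 12.7 and 14.9 in pnet2_a (log2 change 0.26, interval 0.05 to 0.47, limma adjusted p = 0.153). SIG6 in pnet2_b stood at 112% of the pnet2_a level, in the same direction (log2 change 0.17, interval 0.03 to 0.30, limma adjusted p = 0.169).

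Summed over the 6 genes, sigma factor transcripts came to 185 ± 3.45 FPKM per WT library, 192 ± 3.09 per double mutant library, 166 ± 5.65 in pnet2_a and 173 ± 3.09 in pnet2_b plants (mean ± SD, n = 3). The 6 triple mutant libraries held 161 to 176 FPKM and the other 6 held 183 to 195, without overlap. The total over all genes split the same way, at 622263 to 640228 FPKM in the triple mutant libraries and 641937 to 669711 in the other 6. The part of these totals in the sigma factor sums was not tested, and the share of all genes that split this way was not counted.

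The share of each member within a library does not change when all values of that library are multiplied by 1 factor, as in median-ratio scaling; quantile normalization can change it. SIG1 made up 27.8% ± 1.06 of the summed FPKM in the double mutant, against 23.3% ± 1.13 in pnet2_a and 23.2% ± 2.31 in pnet2_b plants. SIG4 made up 9.77% ± 0.852 in the double mutant, 13.0% ± 0.82 in pnet2_a and 12.3% ± 1.33 in pnet2_b plants. Neither the double mutant libraries of SIG1 (27.1% to 29.0%) nor those of SIG4 (8.88% to 10.6%) overlapped any triple mutant library.

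Each member was also set against the geometric mean of the other 5 in the same library, and the 6 triple mutant libraries were compared with the 3 double mutant libraries by an exact two-sided permutation test. The SIG1 ratio differed by -0.37 on the log2 scale, and 6 of 6 triple mutant libraries lay below every double mutant library. The SIG4 ratio differed by 0.39, with 6 of 6 libraries above every double mutant library. Both reached p = 0.0238, the smallest that this exact permutation test can give, and 0.0714 after Benjamini-Hochberg adjustment over the 6 members, so neither passed 0.05. With only these 2 members at the smallest p, no lower adjusted value was possible, so the adjusted value does not decide. The 2 results are not independent, since SIG1 is among the 5 genes that SIG4 is set against and SIG4 among those for SIG1. Set against the median of all genes instead, SIG4 differed by -0.02 (exact permutation adjusted p = 0.857). SIG2 differed by -0.08, SIG3 by 0.00, SIG5 by 0.03 and SIG6 by 0.04, with exact permutation p from 0.452 to 0.929. The SIG4 ratio in the double mutant, -0.50 ± 0.15, was also below that of WT, -0.19 ± 0.148, and pnet2_b libraries (-0.34 to 0.07) covered the WT range of -0.35 to -0.07 nearly in full. In SIG1 the triple mutants, at 0.96 ± 0.116 and 0.92 ± 0.133, were lower than WT at 1.16 ± 0.151, and the double mutant was higher at 1.31 ± 0.0621.

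**Figure D3:**
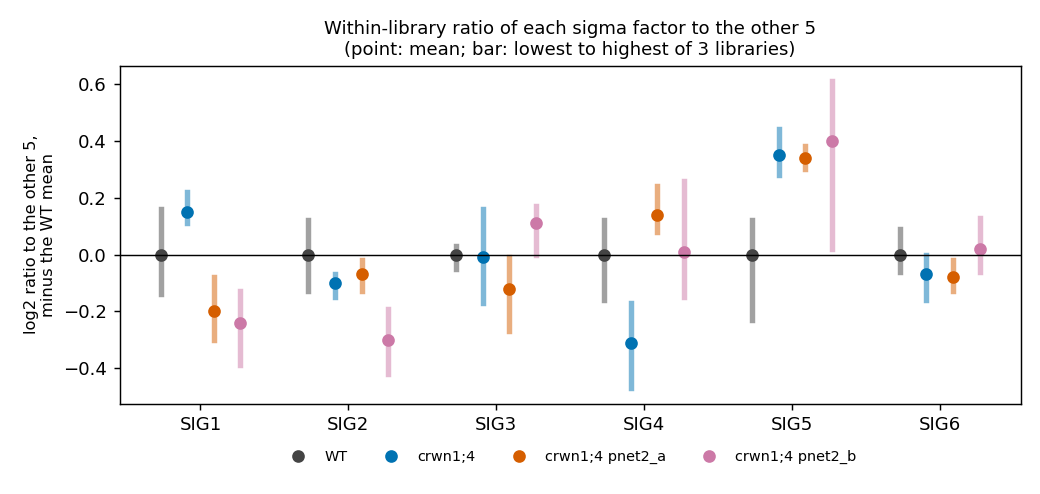
Log2 ratio of each sigma factor to the geometric mean of the other 5 in the same library, with the WT mean of that gene set to 0 (vertical axis); points are means and bars run from the lowest to the highest of 3 libraries. For SIG1 the double mutant bar lies above both triple mutant bars, and for SIG4 it lies below both.

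Transcript profiles most like those of SIG1 and SIG2, the 2 members called in any comparison with the deposited FPKM, were sought among 5900 genes with a symbol and a mean of at least 5 FPKM over the 12 libraries. The measure was the root mean square difference between gene-centred log2 profiles. For SIG1 the nearest were SPPL2 (a signal peptide peptidase-like gene, 0.0561), SBH2 (a sphingoid base hydroxylase, 0.0645) and PIN4 (an auxin efflux carrier, 0.0665). SPPL2 averaged 29.0 FPKM over WT libraries, 32.6 over double mutant libraries, 23.6 in pnet2_a and 24.3 in pnet2_b plants. For SIG2 they were PSB29 (a photosystem II assembly gene, 0.041), AMK2 (an adenosine monophosphate kinase, 0.0484) and SKL1 (shikimate kinase like 1, 0.0505), with PSB29 at 336, 330, 295 and 268 FPKM in the same order.

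Of 4 genes for proteins that act on sigma factors, the sigma factor binding proteins SIB1 and SIB2 rose in both triple mutants. SIB1, which binds SIG1 and is also found in the nucleus as a defence regulator, had 34.4, 37.2 and 43.9 FPKM in pnet2_a and 36.5, 44.6 and 42.0 in pnet2_b plants. It had 9.25, 8.23 and 14.2 in the double mutant and 8.86, 9.67 and 5.40 in WT. Every triple mutant library was above every other library, and WT and the double mutant overlapped. Against the double mutant the SIB1 log2 changes were 1.80 (SE 0.193, limma adjusted p = 9.46e-06) and 1.89 (adjusted p = 3.21e-06). SIB2 had 39.5, 72.4 and 74.1 FPKM in pnet2_a, 65.1, 59.9 and 41.5 in pnet2_b plants, 18.9, 20.3 and 19.4 in the double mutant and 18.4, 26.5 and 27.7 in WT. Again the triple mutants did not overlap the others, with wide spread among themselves (log2 change 1.56, adjusted p = 8.99e-05, and 1.44, adjusted p = 0.000119). SIB1 and SIB2 were called in all 22 alternatives against the double mutant.

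CSK, the chloroplast sensor kinase that phosphorylates SIG1, fell in pnet2_b plants, with 21.3, 20.2 and 20.1 FPKM against 25.3, 25.2 and 26.3 in the double mutant (log2 change -0.31, SE 0.0842, limma adjusted p = 0.00854). In pnet2_a plants it had 21.2, 23.9 and 20.3 FPKM, also below every double mutant library, and was not called (log2 change -0.22, limma adjusted p = 0.055). WT had 21.4, 26.1 and 24.3 FPKM of CSK, and against WT it was not called lower in either triple mutant. DG1, a pentatricopeptide repeat protein that interacts with SIG6, was called in no comparison and had 8.62 ± 0.787 FPKM in the double mutant, 9.27 ± 0.723 in pnet2_a and 8.27 ± 0.88 in pnet2_b plants. In pnet2_a plants 2 of 4 partners were called higher, where 22.9% of all genes were. In pnet2_b plants 2 were called higher, where 38.8% of all genes were, and 1 lower.

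The 3 phage-type RNA polymerase genes rose in both triple mutants with the deposited FPKM, where 22.9% and 38.8% of all genes were called higher. SCA3, a plastid enzyme, had 15.7, 14 and 14.9 FPKM in pnet2_a and 19.1, 17.5 and 17.9 in pnet2_b plants, against 12, 12.1 and 13 in the double mutant, without overlap. Its log2 changes were 0.25 (SE 0.0783, limma adjusted p = 0.0246) and 0.52 (adjusted p = 0.000106). MGP3, a mitochondrial enzyme, changed by 0.37 and 0.62 and AT5G15700, known as RPOTMP and annotated as a DNA/RNA polymerase, by 0.42 and 0.62 on the log2 scale. With median-ratio scaling none of the 3 was called in pnet2_a plants and all 3 were in pnet2_b. With quantile normalization none was called in pnet2_a and SCA3 alone in pnet2_b. The SCA3 call in pnet2_a plants also ended with single libraries left out (double mutant replicate 1 or 2, adjusted p = 0.0796 and 0.0721, pnet2_a replicate 1 or 3, adjusted p = 0.0909 and 0.0647), and those of MGP3 and AT5G15700 ended in 10 and 5 of their alternatives, with adjusted p up to 0.265 and 0.125.

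**Figure D4:**
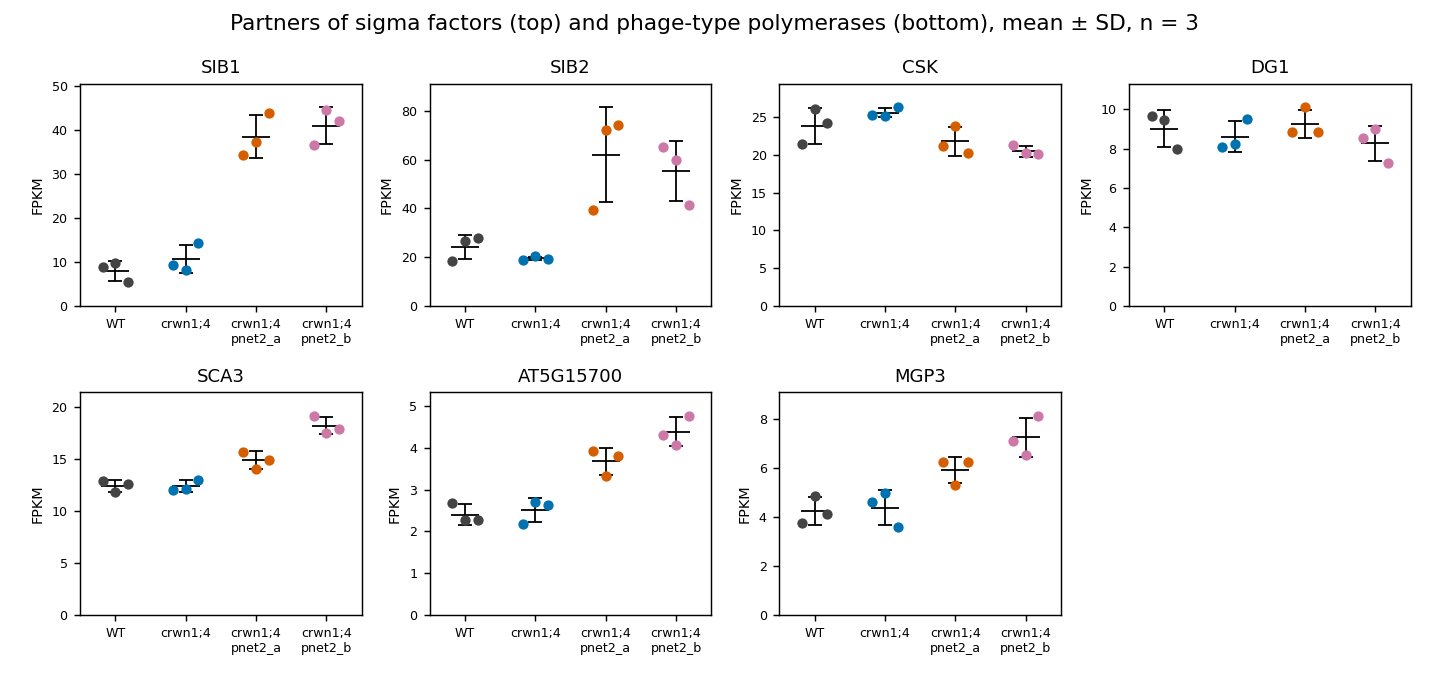
FPKM of 4 partners of sigma factors (top) and 3 phage-type polymerases (bottom) on linear axes from 0, each point 1 library, with mean and SD (n = 3 per genotype). The 6 triple mutant libraries of SIB1 lie between 34.4 and 44.6 FPKM, above the other 6 libraries, whose highest is 14.2.

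Among 12 nuclear genes for PEP-associated proteins, subunits that join the bacterial-type core, 1 rose in pnet2_a plants and none fell, where 22.9% of all genes were called higher and 9.20% lower. In pnet2_b plants 5 rose, where 38.8% of all genes did, and 1, PTAC7, fell (log2 change -0.24, limma adjusted p = 0.0391), where 8.63% did. The PTAC7 call ended in 6 of 22 alternatives, with adjusted p up to 0.175. FSD3, an iron superoxide dismutase of the complex, was the gene that rose in both (34.5 ± 0.175 and 39.2 ± 4.57 FPKM against 28.2 ± 1.16 in the double mutant, log2 changes 0.28 and 0.45). WT had 35.4 ± 2.78 FPKM of FSD3, and neither triple mutant was called against it (log2 changes -0.03 and 0.14, limma adjusted p = 0.8 and 0.179). PTAC12, known as HEMERA, had 34.0 ± 1.73 FPKM in pnet2_b plants and 25.9 ± 0.683 in the double mutant (log2 change 0.38, limma adjusted p = 0.000538). The median of the list was -0.02 and 0.13, or -0.13 and -0.10 relative to the median gene. Of the 4 rises named by rule in pnet2_b (FSD3, PTAC12, PDE312 and FLN1), median-ratio scaling kept 0 and quantile normalization 1. The FSD3 call in pnet2_a plants ended under both scalings, and when replicate 3 of the double mutant (adjusted p = 0.0633) or of pnet2_a (0.0546) was left out.

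Of 9 genes for nucleoid and transcription termination proteins, 4 rose and 1 fell in pnet2_a plants, and 6 rose and none fell in pnet2_b plants, where the shares over all genes were the same 22.9% and 9.20%, and 38.8% and 8.63%. The fall was that of the termination factor gene pde191, known as MTERF6 (log2 change -0.22, limma adjusted p = 0.0471), a call that ended in 11 of 22 alternatives. FLN2, a fructokinase-like protein of the transcription complex, had 24.4 ± 3.15 and 30.2 ± 0.414 FPKM against 19.2 ± 1.73 in the double mutant (log2 changes 0.32 and 0.63). The FLN2 call in pnet2_a plants ended under both scalings and when either replicate 2 or 3 of the double mutant (adjusted p = 0.0683 and 0.0642) or replicate 1 or 3 of pnet2_a (0.0823 and 0.0866) was left out. AT2G28605, annotated as a PsbP family protein, had been listed with these genes in error and was left out of the counts after its values were seen. With it 2 of 10 fell in pnet2_a and 1 in pnet2_b plants. It had 21.8 ± 0.158 FPKM in pnet2_b plants against 29.3 ± 3.28 in the double mutant (log2 change -0.40, limma adjusted p = 0.00639). Of 9 genes for plastid RNA stability, 2 rose and 3 fell in each triple mutant, against those same shares of all genes. The rises in pnet2_a plants, CRR2 and emb2746, were not called with quantile normalization (adjusted p = 0.104 and 0.0606). The falls were CSP41A and CRB, a pair of abundant RNA-binding proteins of the chloroplast, and HCF107, which stabilises plastid transcripts. CSP41A had 444 ± 22.3 FPKM in the double mutant, 365 ± 7.65 in pnet2_a and 277 ± 8.02 in pnet2_b plants (log2 changes -0.28 and -0.68, limma adjusted p = 0.000803 and 2.1e-07). CRB went from 467 ± 20.1 to 364 ± 11.2 and 312 ± 13.7 FPKM.

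Of 17 regulators of light responses and greening, several of which are known to act on sigma factor genes, 2 rose and 6 fell in pnet2_a and 6 rose and 4 fell in pnet2_b plants. Over all genes 22.9% rose and 9.20% fell in pnet2_a, and 38.8% rose and 8.63% fell in pnet2_b plants. GLK2, a transcription factor of chloroplast development, fell from 84.7, 80.1 and 75.7 FPKM in the double mutant to 51.2, 44.8 and 45.3 in pnet2_a and 44.8, 43.4 and 48.1 in pnet2_b plants. The groups did not overlap (log2 changes -0.76, limma adjusted p = 1.21e-05, and -0.81, adjusted p = 3.67e-06). Its more abundant relative GLK1 was not called, with 125 ± 2.63 FPKM in the double mutant, 134 ± 4.82 in pnet2_a and 123 ± 12 in pnet2_b plants (log2 changes 0.10, interval -0.06 to 0.26, and -0.02, interval -0.18 to 0.14). TOC1, a clock component, rose from 15.2 ± 0.59 to 24.7 ± 1.16 and 28.7 ± 3.21 FPKM (log2 changes 0.67 and 0.87). GLK2 and TOC1 were called in all 22 alternatives of each comparison with the double mutant. The labels do not give the hour of harvest.

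**Figure D5:**
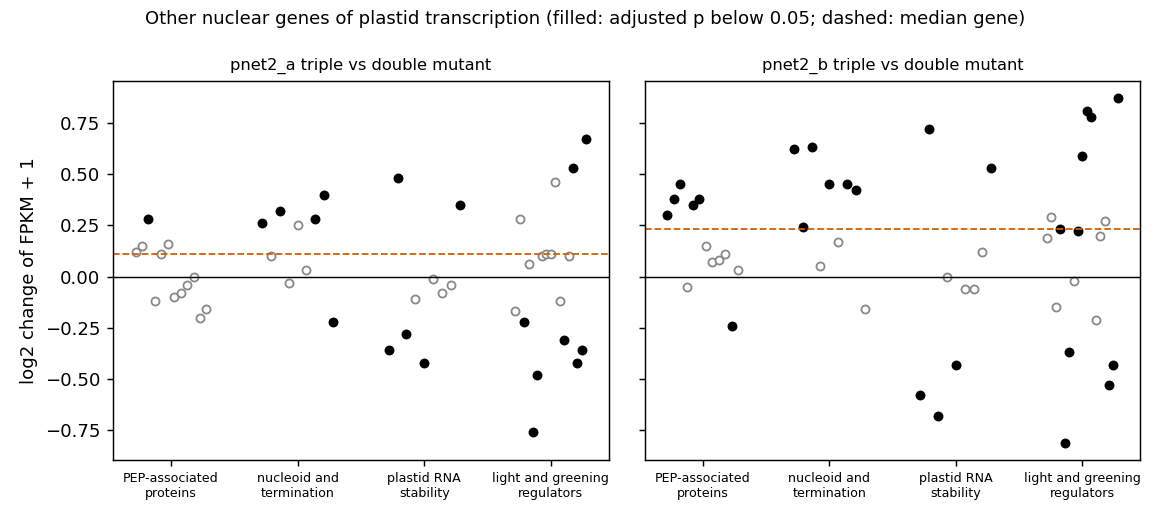
Log2 change of FPKM + 1 (vertical axis) of each gene in 4 lists of plastid transcription and light signalling (AT2G28605 left out), in each triple mutant against the double mutant, filled where the limma adjusted p was below 0.05. The dashed line marks the median of all genes (0.11 and 0.23), and each list holds genes on both sides of it.

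Plastid-encoded transcripts, made by PEP with its sigma factors and in part by the phage-type polymerases, were followed as a group. Of 133 genes with identifiers of the plastid chromosome, 82 passed the filter. None was called in the double mutant against WT by limma, and 13 were past an unadjusted p of 0.05, for which no share of all genes was counted. In pnet2_a plants 22 of 82 fell against the double mutant and none rose, and in pnet2_b plants 21 fell and none rose, where 9.20% and 8.63% of all genes were called lower and 22.9% and 38.8% higher, with plastid median log2 changes of -0.34 and -0.33. Their FPKM summed to 743 ± 33.9 in WT, 658 ± 62.7 in the double mutant, 460 ± 5.81 in pnet2_a and 486 ± 78.1 in pnet2_b plants. The libraries were made from mRNA, plastid transcripts mostly lack long poly(A) tails, and how mRNA was selected is not given in the sources used here, so these sums are levels of what the libraries captured.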

How the data were processed

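Total leaf RNA was sequenced as strand-specific mRNA libraries, per the labels' protocols. The authors deposited FPKM values for 32833 genes in 12 libraries. HISAT2 2.0.4 and the TAIR10 genome are named in the submitters' processing notes; no label or header names the counting program, the annotation or whether counting used the strand. Depth cannot be recovered from the FPKM steps, so no count test was run.

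Log2(FPKM + 1) of the 19110 genes reaching 1 FPKM in 3 or more libraries was fitted over all 12 libraries in R 4.3.3 with limma 3.58.1 (empirical Bayes with intensity trend, 8 residual degrees of freedom). Fold changes are on that scale and understate those of low genes. P-values were Benjamini-Hochberg adjusted within each of 6 comparisons over all genes kept, with calls below 0.05. The fit was tested on simulated data. Within-library ratios (no pseudocount) were compared by exact permutation in scipy 1.17.1 (Python 3.11.15). Promoter windows of 300 bases came from RefSeq TAIR10.1, and 32548 of the 32833 identifiers matched that reference.

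All 6 members were named, from other lists up to 4 genes with the smallest adjusted p over the 6 comparisons, plus SIB1 and CSK, and for each called member the 3 genes nearest in profile. PTAC7, HCF107, pde191, GLK1 and the cell type markers were named after their values were seen. The rule also named 6 plastid genes, which are not reported singly because the files and reference used here do not pair their identifiers with names. Members and lists were chosen with earlier results of these data known. Alternatives were other pseudocounts, filters, scalings, TPM, no trend, a fit on 2 genotypes, a replicate block and leaving out each library.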

Additional observations from a re-analysis of the deposited data

Results flagged for a closer look

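The pnet2_b triple mutant was tested directly against the pnet2_a triple mutant (limma, Benjamini-Hochberg adjusted p), where 2.88% of all genes were called. Among the lists of plastid transcription and light regulators 4 genes were called, and none of the 6 sigma factors was. They were 1 of 17 light and greening regulators, 1 of 9 nucleoid and termination genes and 2 of 9 RNA stability genes. None of 12 PEP-associated, 3 phage-type polymerase and 4 partner genes was called. LHY, a morning gene of the circadian clock, had 4.67, 2.77 and 5 FPKM in pnet2_b and 2.12, 1.06 and 2.08 in pnet2_a, a log2 difference of 0.90 (adjusted p = 0.0332). AT5G48470, known as PRDA1 and acting in PEP transcription, had 18.9 ± 0.684 against 14.6 ± 0.573 FPKM, a log2 difference of 0.35 (adjusted p = 0.0448). With median-ratio scaling neither was called (adjusted p = 0.0569 and 0.271). CSP41A differed by -0.40 (adjusted p = 0.00119; 277 ± 8.02 against 365 ± 7.65 FPKM) and CRB by -0.22 (adjusted p = 0.0416; 312 ± 13.7 against 364 ± 11.2 FPKM), and both were called under either scaling. CSP41A was called in all 22 alternatives and CRB in 11 of 22, with adjusted p up to 0.163. LHY was called in 13 of 21 and AT5G48470 in 8 of 22 alternatives, and the calls of CRB, LHY and AT5G48470 each ended without some single library, with adjusted p up to 0.163, 0.137 and 0.164 among those. Of the cell type markers, 5 differed by the same test: 3 of 4 leaf photosynthetic, 1 of 3 epidermis and 1 of 3 vascular markers. None of the 4 guard cell, 1 root and 2 flower markers kept for the test did. The leaf photosynthetic markers RBCS1A (-0.22, adjusted p = 0.0379), CAB2 (-0.26, 0.017) and LHCB2.1 (-0.42, 0.00582) were lower in pnet2_b, and the epidermis marker PDF1 (0.50, 0.0242) and the vascular marker SUC2 (0.40, 0.0416) were higher. LHCB2.1 was called in all 22 alternatives, PDF1 in 18, CAB2 in 16, and RBCS1A and SUC2 in 11 each. These calls, LHCB2.1 apart, each ended without some single library.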

How the results depend on the processing

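SIG1 against the double mutant and SIG2 in the pnet2_b triple mutant, against either reference, kept their call in all 22 alternatives. Shares of all genes called under the alternatives are not given here. The number of called sigma factors was 1 in the pnet2_a triple mutant against the double mutant; it was 2 with a pseudocount of 0.1 or a filter of 5 FPKM (SIG6 added, adjusted p = 0.0493 and 0.0459) and 4 with median-ratio scaling or quantile normalization. Against WT it was 4 under both scalings for pnet2_a, and for pnet2_b it was 1 in place of 2 with TPM, without the trend (adjusted p of SIG1 0.059) and in the fit on 2 genotypes (0.0803). Leaving out single libraries gave 1 to 2 called in pnet2_a against the double mutant (SIG6 without double mutant replicate 3, 0.0325; SIG3 without pnet2_a replicate 1, 0.0282), 1 to 2 in pnet2_b against WT, and the reported count in the other comparisons. SIG6 in pnet2_b against WT, at 0.00 with the deposited FPKM, was -0.23 with median-ratio scaling and -0.18 with quantile normalization (adjusted p = 0.0132 and 0.0467). GUN1 in pnet2_b against the double mutant became -0.02 with median-ratio scaling, and PTAC12 in pnet2_b against WT became -0.03 and 0.00. With quantile normalization CAB2 in pnet2_b became 0.04 against the double mutant, 0.02 against WT and 0.04 against pnet2_a, and RBCS1A 0.00 in its 5 called comparisons, as did CAB2 in pnet2_a against the double mutant. A gene that keeps its rank has the same value in each library after quantile normalization, so no change can show there. The cause of the other shifts was not tested.

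Set against the median of all genes instead of the other 5 sigma factors, the triple mutants differed from the double mutant by -0.65 for SIG1, -0.41 for SIG2, -0.35 for SIG3, -0.32 for SIG5 and -0.31 for SIG6 (exact permutation adjusted p = 0.0286 each) and by -0.02 for SIG4 (0.857). That alternative is another quantity, since the typical gene rose in the triple mutants. Without single libraries the ratios to the other 5 ranged from -0.40 to -0.33 for SIG1, -0.12 to -0.04 for SIG2, -0.08 to 0.09 for SIG3, 0.31 to 0.45 for SIG4, -0.02 to 0.10 for SIG5 and 0.00 to 0.08 for SIG6. SIG3 stayed at 0.00 with a pseudocount of 1.

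Same-numbered libraries did not deviate together (correlations from -0.0842 to 0.0678 over 18 pairs, none above 0.1), so no pairing by number showed in these values. A pairing in growth or preparation that left no such trace cannot be seen this way. With a replicate block the called sigma factors were the same in number in all 6 comparisons (0, 1, 2, 1, 2 and 0). The exact permutation p of the SIG1 and SIG4 ratios was then 0.0741, the smallest that the blocked test can give. It could not fall below 0.05, so the blocked test does not decide. Depth in reads is unknown, and 3 libraries a genotype limit what small differences such as those of SIG3, SIG5 and SIG6 can show.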
